A study of Mus musculus with 12 samples.

Results

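The comparison described here sets mouse embryonic fibroblasts given a Myf5 lentivirus against the same cells given a GFP lentivirus, using 7 of the 12 libraries of the series. The libraries were taken by their labels: 2 Myf5 libraries, made at a 1x and a 2x dose, and 5 GFP libraries, of which 1 was made at a 1x dose and 4 form a series of multiplicity of infection (MOI, infectious particles per cell) of 15, 30, 60 and 120. All 7 come from cells labelled MyoD-/-; Myf5-/-, so the GFP controls carry the same double deletion. Cells grown in DMEM with 10% serum were infected with polybrene present, moved after 24 h to a differentiation medium with insulin, transferrin and horse serum, and collected 20 h later. Poly(A) RNA was selected with oligo-dT and sequenced. The labels give no MOI for the 1x and 2x doses, no promoter for the introduced Myf5, and no statement that libraries came from separate cultures. The p-values below therefore measure the spread between libraries that differ in dose, and that spread may be technical in part. The estimate of spread also draws on the 1x and 2x MyoD libraries of the same table. Comparisons were made against all 5 GFP libraries and again against the 1x GFP library alone. In the latter, the single control library adds nothing to the estimate of spread.

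Myf5 and MyoD are basic helix-loop-helix transcription factors that commit cells to skeletal muscle. They bind E-box DNA motifs with an E-protein partner and switch on myogenin, acetylcholine receptor subunits, fusion proteins and the contractile apparatus. Interferon-stimulated genes form a separate program, turned on when cells sense viral nucleic acid and signal through the interferon receptor to a set of transcription factors.

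The Myf5 libraries held 68302462 (1x) and 68495275 (2x) counts, the 1x GFP library 81513727, and the MOI libraries 17861174 to 22373706, so genes of low level are counted more finely in the first 3 libraries. Levels are given as CPM, the counts of a gene scaled to the same library total, which do not correct for gene length and are compared only between libraries, not between genes. The tests covered 13825 genes with at least 1 CPM in at least 2 libraries of the table. A gene is said to have risen or fallen where the adjusted p of edgeR's quasi-likelihood test was under 0.05 over all these genes. A value after ± is the standard error implied by that test. It is the size of the log2 fold change divided by the square root of the F statistic.

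The introduced factor was seen in both Myf5 libraries. Myf5 (ENSMUSG00000000435.1) stood at 149.5 and 249 CPM with 1x and 2x Myf5, against 17.2 CPM with 1x GFP and 17.6, 20.8, 18.3 and 19.4 CPM at an MOI of 15, 30, 60 and 120. Its log2 fold change was 3.45 ± 0.16 against 5 GFP (adjusted p = 2.75e-05) and 3.52 ± 0.31 against 1x GFP (adjusted p = 0.00348). Counts from the introduced copy and from the cells' own locus cannot be told apart. Myod1 (ENSMUSG00000009471.3), the other deleted gene, kept 5.36 and 5.21 CPM with Myf5, against 5.62 CPM with 1x GFP and 5.43 to 5.99 CPM in the MOI series. Both genes thus had reads in the GFP libraries of cells labelled null for them. The log2 fold change of Myod1 was -0.08 ± 0.23 against 5 GFP (adjusted p = 0.835) and -0.10 ± 0.36 against 1x GFP (adjusted p = 0.911).

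Muscle genes stood higher with Myf5 under either control. The 9 lists of muscle genes held 165 genes, of which 51 fell below the filter on low levels and 114 were tested. Against 5 GFP, 47 of the 114 rose and 2 fell, where 3.81% of all genes tested rose and 2.29% fell (6.10% in either direction). Against 1x GFP, 15 rose and 0 fell, where 1.03% of all genes rose and 0.152% fell (1.18% in either direction). By other rules, 55 were higher and 4 lower against 1x GFP at an unadjusted p under 0.05, and 36 were higher and 0 lower with DESeq2, where all 13825 genes gave 1327 higher and 1083 lower by the first rule and 554 and 204 by DESeq2. The median log2 fold change of the 114 was 0.86 against 5 GFP and 0.90 against 1x GFP, while that of all genes was -0.003 and -0.005. With genes at 0 counts in 1x GFP set to their lower bound, the median against 1x GFP was 0.88. Some of these genes did not meet the filter within the GFP group and passed it with the help of libraries with a muscle factor, Myf5 or MyoD. That choice favours genes that are higher with a muscle factor, and the medians of all 114 are read with that limit. Of the tested genes, 72 also met the filter within the GFP group, and of these 20 rose and 2 fell against 5 GFP, and 9 rose and 0 fell against 1x GFP. The medians of the 72 were smaller, at 0.40 against 5 GFP and 0.33 against 1x GFP. Of all 13459 genes that met the filter within GFP, 430 rose and 316 fell against 5 GFP, and 120 rose and 21 fell against 1x GFP. Their medians were -0.009 and -0.008. These values stand beside the counts of single lists below. At the level of single libraries, in 75 of the 114, both Myf5 libraries lay above all 5 GFP libraries, against 15.0% of all genes. This count includes the genes that did not meet the filter within GFP, and was not taken over the 72 alone. Many calls rest on the 2x Myf5 library. Without it, fewer muscle genes and fewer of all genes rose under either control.

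**Figure D1:**
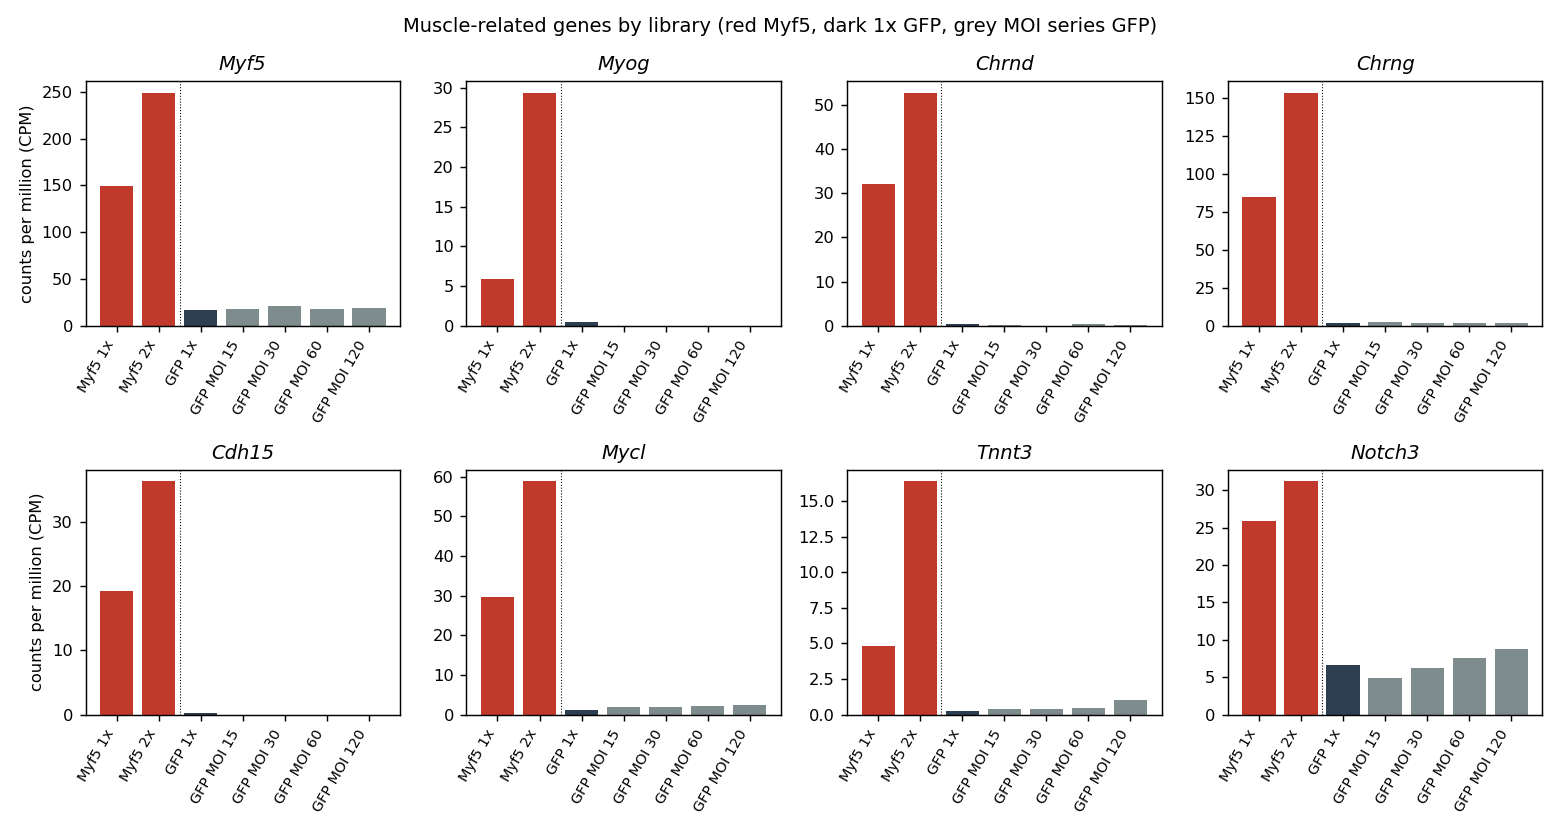
Level in CPM (vertical axis, each panel on its own scale) of 8 muscle-related genes in the 2 Myf5 libraries (red), the 1x GFP library (dark) and the 4 GFP libraries of the MOI series (grey); each bar is 1 library. Both Myf5 bars stand above all GFP bars in each panel, from 25.9 and 31.2 CPM against at most 8.82 CPM for Notch3 to 85.0 and 154 CPM against at most 2.23 CPM for Chrng.

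Among the myogenic transcription factors and cofactors, 8 of 15 tested rose and none of them fell against 5 GFP, and 3 rose against 1x GFP. The median log2 fold changes were 0.60 and 0.64, and 0.41 and 0.39 over the 12 that met the filter within GFP. Myog, the myogenin gene that drives terminal differentiation, had 5.91 and 29.4 CPM with 1x and 2x Myf5, against 0.503 CPM with 1x GFP and 0 at each MOI, where 3 counts would be 0.134 to 0.168 CPM. Its log2 fold change was 6.26 ± 0.90 against 5 GFP (adjusted p = 0.00734) and 5.12 ± 1.54 against 1x GFP (adjusted p = 0.198). The groups did not overlap, and the 1x and 2x Myf5 libraries lay far apart. Mycl, the L-Myc gene, had 29.8 and 58.9 CPM with Myf5, against 1.14 CPM with 1x GFP and 1.98 to 2.39 CPM in the MOI series. It rose under both controls, by 4.65 ± 0.32 on the log2 scale against 5 GFP and 5.26 ± 0.53 against 1x GFP (adjusted p = 0.000188 and 0.00467). Eya4, a transcriptional coactivator, had 3.16 and 4.06 CPM with Myf5, against 0.672 to 0.848 CPM in GFP libraries, and rose under both (2.24 ± 0.20, adjusted p = 0.000915, and 2.10 ± 0.31, adjusted p = 0.0231). Its call against 1x GFP was lost without the 2x Myf5 library. Six4 and the RNA-binding splicing regulator Rbm24 also rose against 5 GFP, with log2 fold changes of 0.84 ± 0.13 and 5.95 ± 0.96, and were not called against 1x GFP (0.80 ± 0.21 and 4.96 ± 1.68). Bhlhe41, a bHLH repressor of the circadian clock, rose under both controls by 0.65 ± 0.08 and 0.48 ± 0.09, with an adjusted p of 0.0498 against 1x GFP that was lost without either Myf5 library. Mef2c, which encodes a partner of the myogenic factors, changed sign with the control, at -0.24 ± 0.44 against 5 GFP and 1.04 ± 0.40 against 1x GFP, and was called under neither (adjusted p = 0.736 and 0.24).

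Genes of the neuromuscular junction gave the highest list medians among the muscle lists, 2.85 against 5 GFP and 3.20 against 1x GFP over 9 tested genes, of which 6 and 5 rose. Over the 6 that met the filter within GFP, the medians were 1.30 and 1.55, and 3 rose under each control. Chrng, the gamma subunit of the fetal acetylcholine receptor, had 85.0 and 154 CPM with Myf5, against 1.96 CPM with 1x GFP and 2.23, 1.62, 1.88 and 1.65 CPM at an MOI of 15, 30, 60 and 120. Chrnd, the delta subunit, had 32.1 and 52.7 CPM with Myf5, against 0.405 CPM with 1x GFP and 0 to 0.358 CPM in the MOI series. Every Myf5 library exceeded every GFP library by a wide margin in both genes. Chrng rose by 6.01 ± 0.27 against 5 GFP and 5.91 ± 0.53 against 1x GFP (adjusted p = 2.72e-05 and 0.00348). Chrnd rose by 7.20 ± 0.41 and 6.69 ± 0.64 (adjusted p = 8.11e-05 and 0.00348). Chrnb1, the beta subunit, had 34.0 and 53.6 CPM, against 4.71 to 7.60 CPM in GFP libraries, and rose by 2.85 ± 0.23 and 3.20 ± 0.39. Rapsn, which encodes the protein that clusters the receptors, had 14.9 and 16.0 CPM, against 0.179 to 0.638 CPM, and rose by 5.03 ± 0.28 and 4.58 ± 0.35 (adjusted p = 8.11e-05 and 0.00299). Its values in the 1x and 2x Myf5 libraries were nearly equal. Lrp4, the agrin receptor, rose by 2.44 ± 0.15 against 5 GFP and 2.46 ± 0.26 against 1x GFP (adjusted p = 0.000123 and 0.00568). The alpha subunit was not called under either control. Chrna1 had 0.937 and 1.18 CPM with Myf5, against 1.10 to 2.37 CPM in GFP libraries, with log2 fold changes of -0.80 ± 0.46 and -1.01 ± 0.62 (adjusted p = 0.273 and 0.435). Agrn, the nerve-derived organizer of the junction, had 56.2 and 93.4 CPM with Myf5, against 47.5 CPM with 1x GFP and 87.9, 126, 125 and 173 CPM at an MOI of 15, 30, 60 and 120. It was called under neither control (-0.54 ± 0.41, adjusted p = 0.402, and 0.64 ± 0.38, adjusted p = 0.416). Dok7, an activator of the MuSK kinase, had 0.469 and 3.39 CPM with Myf5, against 0 to 0.0736 CPM in GFP libraries. It rose against 5 GFP by 5.27 ± 0.98 (adjusted p = 0.0199) and was not called against 1x GFP (4.66 ± 1.48, adjusted p = 0.172). The call was lost without the 2x Myf5 library or without the GFP library at an MOI of 15, 30 or 60 (adjusted p up to 0.235).

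Genes of excitation-contraction coupling link the action potential to calcium release. Of 13 tested, 6 rose against 5 GFP and 1 against 1x GFP, with medians of 1.00 and 0.82. The 8 that met the filter within GFP had medians of 0.44 and 0.44, and 2 and 1 of them rose. Stac3, an adaptor of the calcium channel complex, had 11.6 and 23.1 CPM with Myf5, against 1.82 to 3.19 CPM in GFP libraries, and rose under both controls (2.82 ± 0.33, adjusted p = 0.00286, and 3.24 ± 0.56, adjusted p = 0.0355). Its call against 1x GFP was lost without the 2x Myf5 library. Ryr1, the calcium release channel, had 3.18 and 9.48 CPM with Myf5, against 0.393 CPM with 1x GFP and 0.150 to 0.536 CPM in the MOI series. Its log2 fold changes of 3.98 ± 0.54 and 3.99 ± 0.93 were alike in size but differed in their adjusted p (0.00544 and 0.0913). Atp2a1, the fast-muscle calcium pump, Jsrp1 and Hrc, proteins of the sarcoplasmic reticulum, rose against 5 GFP by 2.64 ± 0.37, 4.58 ± 0.62 and 4.83 ± 0.87. Against 1x GFP they had values of 2.67 ± 0.62, 4.36 ± 0.99 and 4.27 ± 1.34, which were not called.

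Fusion and adhesion genes split into a few large rises and many values near 0. Of 14 tested, 5 rose and 1 fell against 5 GFP, 2 rose and 0 fell against 1x GFP, and the medians were 0.38 and 0.27, or 0.21 and 0.22 over the 11 that met the filter within GFP. With an unadjusted p under 0.05 as the rule, 2 were lower against 1x GFP, and with DESeq2 0. Cdh15, the muscle cadherin, had 19.2 and 36.3 CPM with Myf5, against 0.245 CPM with 1x GFP and 0 at each MOI, and rose by 7.87 ± 0.53 and 6.79 ± 0.74 (adjusted p = 0.000188 and 0.0284). Itga7, an integrin subunit of muscle cells, had 41.6 and 57.0 CPM, against 6.18 to 10.0 CPM in GFP libraries, and rose by 2.67 ± 0.21 and 2.28 ± 0.28. The 2 fusogens rose against 5 GFP and narrowly missed the threshold against 1x GFP. Mymk, myomaker, had 5.80 and 22.3 CPM with Myf5, against 0 to 0.110 CPM in GFP libraries (7.68 ± 0.85, adjusted p = 0.00229, and 6.95 ± 1.42, adjusted p = 0.0641). Mymx, myomixer, had 4.38 and 8.61 CPM, against 0.0499 to 0.307 CPM (5.15 ± 0.58, adjusted p = 0.00233, and 4.38 ± 0.84, adjusted p = 0.0545). Cdon, a cell-surface coreceptor that promotes myogenesis, fell against 5 GFP (-0.35 ± 0.07, adjusted p = 0.0319) and had the same size against 1x GFP without a call (-0.35 ± 0.10, adjusted p = 0.146).

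In the thin filament list 7 of 17 tested rose against 5 GFP and 1 against 1x GFP (medians 2.42 and 2.22). The thick filament, titin and M-band list had 6 of 13 and 0 of 13 (medians 2.21 and 2.34, or 2.33 with genes at 0 counts set to their bound), and the Z-disc list 2 of 8 and 0 of 8 (medians 2.17 and 1.92). Most of these rises came from genes that did not meet the filter within GFP, and so were chosen in part for a high level with a muscle factor. Of the 17 thin filament genes 8 met it, 1 of the 7 that rose among them, with medians of 0.32 and 0.52. Of the 13 thick filament genes 4 met it, with medians of 0.40 and 0.10, and they held none of the 6 that rose. Of the 8 Z-disc genes 4 met it, 1 of the 2 that rose among them, with medians of 1.25 and 0.90. Tpm1 and Tpm3, tropomyosins that nonmuscle cells also use, stood high in all 7 libraries, Tpm1 at 572 and 589 CPM with Myf5 against 648 to 686 CPM with GFP, and were called under neither control. Against 1x GFP, an unadjusted p under 0.05 gave 5 higher thick filament genes and 3 higher Z-disc genes, and DESeq2 gave 1 and 0. Tnnt3, fast troponin T, had 4.82 and 16.4 CPM with Myf5, against 0.282 CPM with 1x GFP and 0.355, 0.392, 0.492 and 1.05 CPM at an MOI of 15, 30, 60 and 120. Actc1, the cardiac actin that embryonic skeletal muscle also uses, had 3.21 and 14.2 CPM, against 0.331 CPM with 1x GFP and 0 to 0.0447 CPM in the MOI series. Both genes were well above their 1x Myf5 level in the 2x Myf5 library. The log2 fold changes were 4.57 ± 0.65 and 5.21 ± 1.19 for Tnnt3 (adjusted p = 0.00708 and 0.0881) and 5.73 ± 0.95 and 4.69 ± 1.38 for Actc1 (adjusted p = 0.0129 and 0.147). Tnnt1, slow troponin T, had 3.16 and 5.68 CPM with Myf5, against 0.0736 CPM with 1x GFP and 0.199 to 0.557 CPM in the MOI series, and rose under both controls (3.93 ± 0.54 and 5.85 ± 0.74). Its call against 5 GFP was lost without the 2x Myf5 library. Tnnt2, cardiac troponin T, Mylpf, the fast regulatory light chain, and Actn3, the fast alpha-actinin, rose against 5 GFP by 3.92 ± 0.63, 4.47 ± 0.81 and 2.72 ± 0.42. None of the 3 was called against 1x GFP, where Mylpf had 4.40 ± 1.41, Actn3 2.04 ± 0.59 and Tnnt2 an adjusted p of 0.14. Synpo2l, a Z-disc protein, likewise had 2.82 ± 0.60 (adjusted p = 0.0299) and 2.59 ± 0.90 (adjusted p = 0.201). Myh3, the embryonic myosin heavy chain, had 1.01 and 4.44 CPM with Myf5, against 0.209 CPM with 1x GFP and 0 at each MOI, and its call against 5 GFP (adjusted p = 0.045) was lost without the 2x Myf5 library or without any 1 of the 5 GFP libraries.

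For genes with hardly any count in the controls, the intervals and bounds cover counting error only. Counts of the 2 Myf5 libraries were pooled, so the spread between them is not covered. The ratios and bounds were not taken for the 1x or the 2x Myf5 library alone. Mybph, a myosin-binding protein, had 232 counts in the Myf5 libraries against 2 in the 5 GFP libraries, a ratio of 137 with a 95% counting interval of 37.5 to 1138. Against 1x GFP, with 0 counts, it was at least 46.1-fold higher on a floor of 3 counts over the group. Myom3, an M-band protein, had 107 counts against 2 in the 5 GFP libraries, both of them in 1x GFP, with ratios of 63.2 (interval 17.1 to 528) and 31.9 (interval 8.61 to 267). Ckm, muscle creatine kinase, had 96 counts with Myf5 and 0 in all 5 GFP libraries, and was at least 37.8-fold higher than in 5 GFP and at least 19.1-fold higher than in 1x GFP. Its adjusted p missed the threshold under both (0.105 and 0.331).

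Several muscle genes had counts in the 1x GFP library and none in the MOI series. Myog had 41 counts in 1x GFP, Cdh15 had 20, Myh3 had 17 and Rbm24 had 4, and each had 0 in all 4 MOI libraries. At the CPM of the 1x GFP library, Myog would have given more than the floor of 3 counts in each MOI library, and Rbm24 would not. The MyoD libraries of the same table held 270.3 and 763 CPM of Myog. What part such counts have in the values against 1x GFP was not tested.

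The list of muscle energy genes covers creatine kinase, glycolysis and oxidative enzymes. Of 12 tested, 3 rose against 5 GFP and 1 against 1x GFP (medians 0.66 and 0.49, or 0.48 and 0.02 over the 7 that met the filter within GFP). Cox8b, the muscle isoform of a cytochrome oxidase subunit, had 2.27 and 3.14 CPM with Myf5, against 0 to 0.112 CPM in GFP libraries, and rose by 5.31 ± 0.51 and 4.93 ± 0.80 (adjusted p = 0.00125 and 0.0295). Without the 2x Myf5 library the call of Cox8b against 1x GFP was lost. Eno3, muscle enolase, had 87.3 and 109 CPM with Myf5, against 55.6 CPM with 1x GFP and 22.2 to 24.2 CPM in the MOI series. Its rise of 1.73 ± 0.36 against 5 GFP (adjusted p = 0.0277) stood beside 0.81 ± 0.20 against 1x GFP, which was not called (adjusted p = 0.106). The call against 5 GFP was lost without either Myf5 library or any 1 library of the MOI series (adjusted p up to 0.335). Ak1, adenylate kinase, rose against 5 GFP by 0.48 ± 0.08 and was not called against 1x GFP (0.31 ± 0.08).

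Of 13 Notch and Id genes, which act in muscle progenitors and restrain differentiation, 4 rose and 1 fell against 5 GFP, and 2 rose and 0 fell against 1x GFP (medians 0.77 and 0.40). Under the unadjusted rule 1 was lower against 1x GFP (p under 0.05), and with DESeq2 0. Notch3, a receptor, had 25.9 and 31.2 CPM with Myf5, against 6.61 CPM with 1x GFP and 4.91, 6.27, 7.55 and 8.82 CPM at an MOI of 15, 30, 60 and 120. It rose by 2.09 ± 0.17 and 2.10 ± 0.27 (adjusted p = 0.000572 and 0.0123). Dll1, a ligand, had 6.02 and 10.9 CPM with Myf5, against 1.14 CPM with 1x GFP and 2.53 to 3.81 CPM in the MOI series, and rose by 1.71 ± 0.41 and 2.88 ± 0.52, with an adjusted p of 0.0467 against 5 GFP and 0.0415 against 1x GFP. The call against 1x GFP was lost without the 2x Myf5 library, and that against 5 GFP without either Myf5 library or any 1 library of the MOI series (adjusted p up to 0.455). Notch2, another receptor, rose against 5 GFP by 0.38 ± 0.06 and was not called against 1x GFP (0.29 ± 0.07). Id2, an inhibitor of bHLH factors, rose against 5 GFP (0.99 ± 0.17) and had 1.23 ± 0.25 against 1x GFP (adjusted p = 0.0631). Hes1, a Notch target that represses transcription, fell against 5 GFP (-0.83 ± 0.18, adjusted p = 0.0344) and had -0.48 ± 0.19 against 1x GFP (adjusted p = 0.254).

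For interferon-stimulated genes the sign of the difference depended on the control. The 7 interferon lists held 118 genes, of which 5 matched no symbol, 6 fell below the filter and 107 were tested. Against 5 GFP, 0 rose and 1 fell, with a median log2 fold change of -0.29. The unadjusted p was under 0.05 for 1 higher and 4 lower, and DESeq2 gave the same counts, where over all genes the first rule gave 1906 and 2039 and DESeq2 1059 and 1084. Against 1x GFP, 2 rose and 0 fell, with a median of 1.67. At an unadjusted p under 0.05, 73 were higher and 5 lower against 1x GFP, and DESeq2 called 45 higher and 0 lower, so the number called there depends on the tool. Over all genes these rules gave 1327 higher and 1083 lower, and 554 and 204. In 81 of the 107 the fitted value was negative against 5 GFP and positive against 1x GFP. In 1 of the 107 both Myf5 libraries lay above all 5 GFP libraries and in 3 below, where 15.0% and 16.6% of all genes did so.

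The controls themselves spread widely. The MOI series was higher than the 1x GFP library in 74 of the 107 and lower in 2, with a median log2 difference of 2.50, where 12.1% of all genes were higher and 12.2% lower. The level was lowest with 1x GFP among the 7 libraries in 91 of the 107 (85.0%, against 24.3% of all genes) and highest at an MOI of 120 in 89 (83.2%, against 18.5%). It climbed at each MOI step in 82, against 8.54% of all genes. The 1x Myf5 library lay between the 1x GFP library and the lowest MOI library in 88, against 19.5% of all genes, and the 2x Myf5 library lay within the range of the MOI series in 83, against 25.5%. As a mean of log2(CPM + 1) over the 107 genes, the level was 4.56 with 1x Myf5 and 5.75 with 2x Myf5, against 3.75 with 1x GFP and 5.26, 5.70, 5.83 and 6.39 at an MOI of 15, 30, 60 and 120. The 2 Myf5 libraries therefore differed from each other by more than 1 unit of this scale, with 2x above 1x in 98 of the 107 genes, against 95 of the 114 muscle genes and 6914 of all 13825. Dose of virus, dose of Myf5 and library cannot be told apart between the 2 Myf5 libraries.

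**Figure D2:**
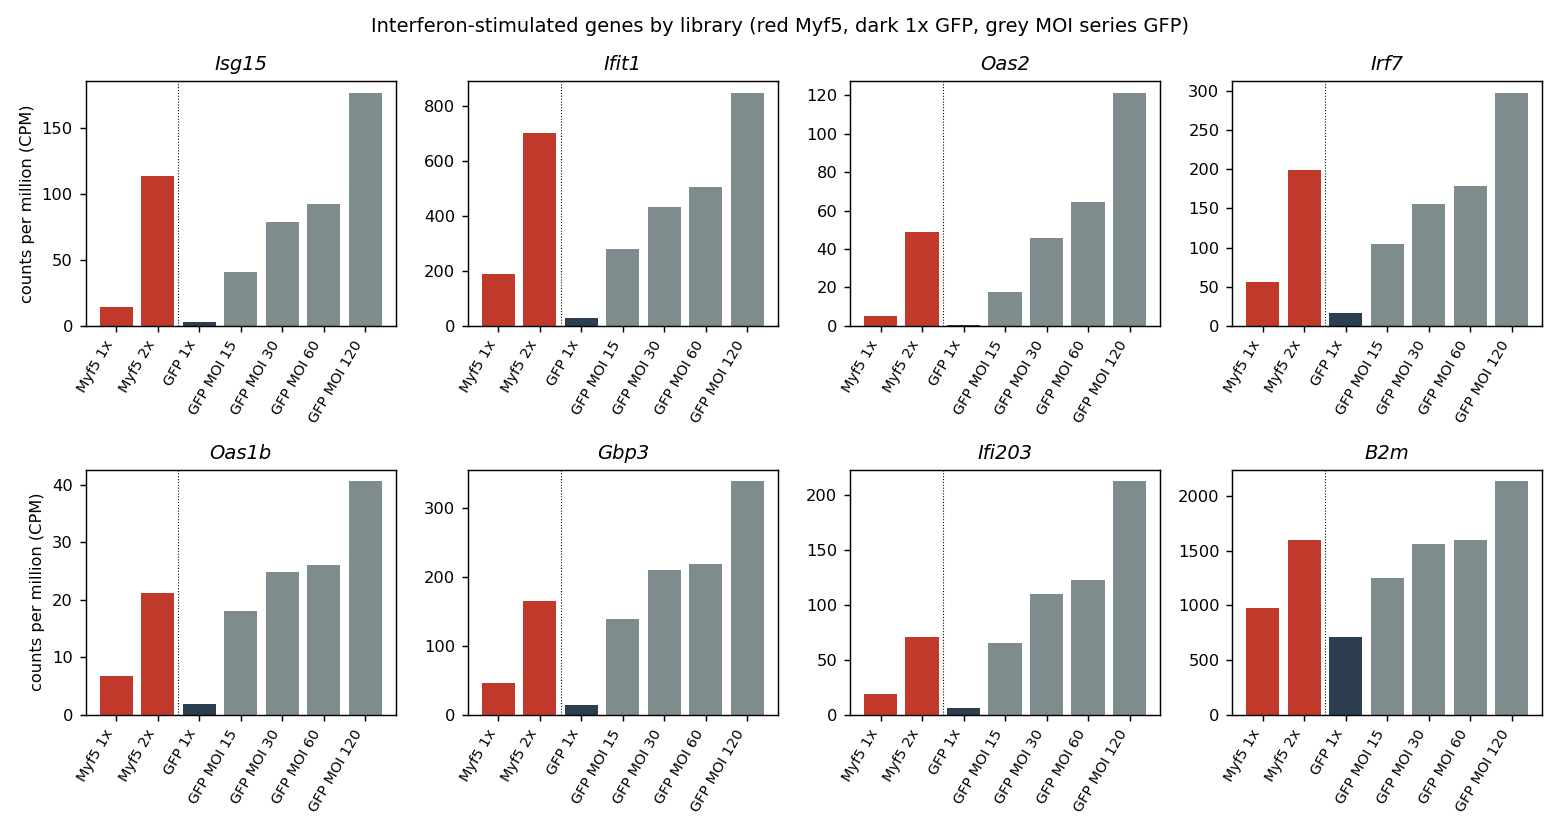
Level in CPM (vertical axis, each panel on its own scale) of 8 interferon-stimulated genes in the 2 Myf5 libraries (red), the 1x GFP library (dark) and the 4 GFP libraries of the MOI series (grey); each bar is 1 library. The 1x GFP bar is the lowest and the MOI bars climb from 15 to 120 in each panel, with the 1x Myf5 bar below that of an MOI of 15 and the 2x Myf5 bar within the series, as for Isg15 at 14.1 and 113 CPM with Myf5 against 2.99 CPM with 1x GFP and 40.5 to 176 CPM in the series.

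Ifit1, which binds foreign RNA, had 188 and 704 CPM with 1x and 2x Myf5, against 28.6 CPM with 1x GFP and 282, 434, 507 and 849 CPM at an MOI of 15, 30, 60 and 120. Its log2 fold change was 0.13 ± 0.90 against 5 GFP (adjusted p = 0.94) and 3.95 ± 0.91 against 1x GFP (adjusted p = 0.0901). Isg15, a ubiquitin-like modifier, had values of -0.24 ± 1.12 and 4.40 ± 1.37 (adjusted p = 0.907 and 0.168). Oas2, an oligoadenylate synthetase, had 5.07 and 48.6 CPM with Myf5, against 0.319 CPM with 1x GFP and 17.6, 45.7, 64.3 and 121 CPM at the 4 MOI steps. Its log2 fold change was -0.84 ± 1.40 against 5 GFP and 6.38 ± 1.96 against 1x GFP, and neither was called. The 8 genes of its list had the widest gap between controls, with medians of -0.52 and 4.97. Gbp3, a guanylate-binding protein of cell-autonomous defence, had 45.9 and 165 CPM with Myf5, against 14.0 CPM with 1x GFP and 139 to 339 CPM in the MOI series, and the 13 inducible GTPases had medians of -0.64 and 2.95. Ifi203, of the Ifi200 family of DNA sensors, had -1.16 ± 1.00 and 2.92 ± 0.90, in a list of 10 with medians of -0.34 and 1.97.

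Irf9, the DNA-binding part of an interferon-activated complex, had 109 and 154 CPM with Myf5, against 59.7 CPM with 1x GFP and 169, 195, 192 and 219 CPM at an MOI of 15, 30, 60 and 120. It rose against 1x GFP by 1.13 ± 0.21 (adjusted p = 0.045), a call lost without the 2x Myf5 library (adjusted p = 0.1), and had -0.30 ± 0.39 against 5 GFP (adjusted p = 0.632). Irf7, the regulator that amplifies interferon production, had 55.5 and 199 CPM, against 15.9 CPM with 1x GFP and 105 to 298 CPM (-0.20 ± 0.83 and 2.99 ± 0.83, neither called). B2m, the light chain of MHC class I, had the same order on a narrower range, with 976 and 1597 CPM against 712 CPM with 1x GFP and 1247 to 2133 CPM (-0.13 ± 0.34 and 0.84 ± 0.34, neither called).

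Among the other members, Isg20, an exonuclease, had -0.38 ± 0.32 against 5 GFP and 0.51 ± 0.29 against 1x GFP, and Trim30a had -1.35 ± 1.13 and 2.70 ± 1.29. Oas1b, a relative of Oas2, had -0.62 ± 0.86 and 2.92 ± 0.74. Irf3, which needs no induction by interferon, had -0.33 ± 0.08 and -0.21 ± 0.10, and Nlrc5, an activator of MHC class I genes, had 0.52 ± 0.30 and 1.28 ± 0.34. Ifi209 had -0.88 ± 0.80 and 1.62 ± 0.82. Near-identical relatives may share reads, so Tgtp1 (-1.88 ± 1.38 and 3.57 ± 1.63), Gm12185 (-1.50 ± 1.01 and 2.06 ± 1.03), H2-Q6 (-1.69 ± 0.84 and 1.79 ± 0.45) and H2-Q7 (-2.29 ± 0.86 and 0.91 ± 0.51) are uncertain. None of these genes was called under either control.

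Chemokines were the list whose medians had the same sign under both controls. Their 12 tested genes had medians of -0.13 against 5 GFP and -0.21 against 1x GFP. Ccl8, a monocyte-attracting chemokine, had 23.3 and 30.2 CPM with Myf5, against 13.2 CPM with 1x GFP and at most 21.0 CPM in the MOI series, and was the one interferon-list gene above all 5 GFP libraries in both Myf5 libraries. It rose against 1x GFP (1.01 ± 0.16, adjusted p = 0.0295) and lay at the threshold against 5 GFP (0.62 ± 0.16, adjusted p = 0.0501). Without the 2x Myf5 library the call against 1x GFP was lost (adjusted p = 0.0729). Cxcl12, a chemokine of stromal cells, had 902 and 886 CPM with Myf5, against 1059 CPM with 1x GFP and 1217 to 1367 CPM in the MOI series. It fell against 5 GFP (-0.44 ± 0.11, adjusted p = 0.0471) and was not called against 1x GFP (-0.26 ± 0.13, adjusted p = 0.328).

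The 2 programs differed in how far their values depended on the control. Over the 72 muscle genes that met the filter within GFP the medians were 0.40 against 5 GFP and 0.33 against 1x GFP, and the MOI series differed from 1x GFP by a median of -0.11 over the 114 genes, 5 of them higher and 7 lower. Over the interferon lists, all 107 tested genes of which met that filter, the medians were -0.29 and 1.67. A further fit took the mean interferon level of each library as a covariate, an alternative chosen after seeing the data. In it 57 muscle genes rose against 5 GFP and 4 against 1x GFP, compared with 47 and 15 without the covariate. Over all 13825 genes, 1403 rose against 5 GFP and 16 against 1x GFP with the covariate, compared with 527 and 142 without it. Chrng had log2 fold changes of 5.95 and 5.13 in that fit (adjusted p = 1.32e-05 and 0.032 with edgeR), and Rapsn 5.06 and 4.47. Cdh15 had 7.69 against 5 GFP and was no longer called against 1x GFP (5.73, adjusted p = 0.157). The level used as covariate was 4.56 with 1x Myf5, 5.75 with 2x Myf5 and 3.75 with 1x GFP. It moved with the dose and with the control, so the fit cannot separate interferon level from these.

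**Figure D3:**
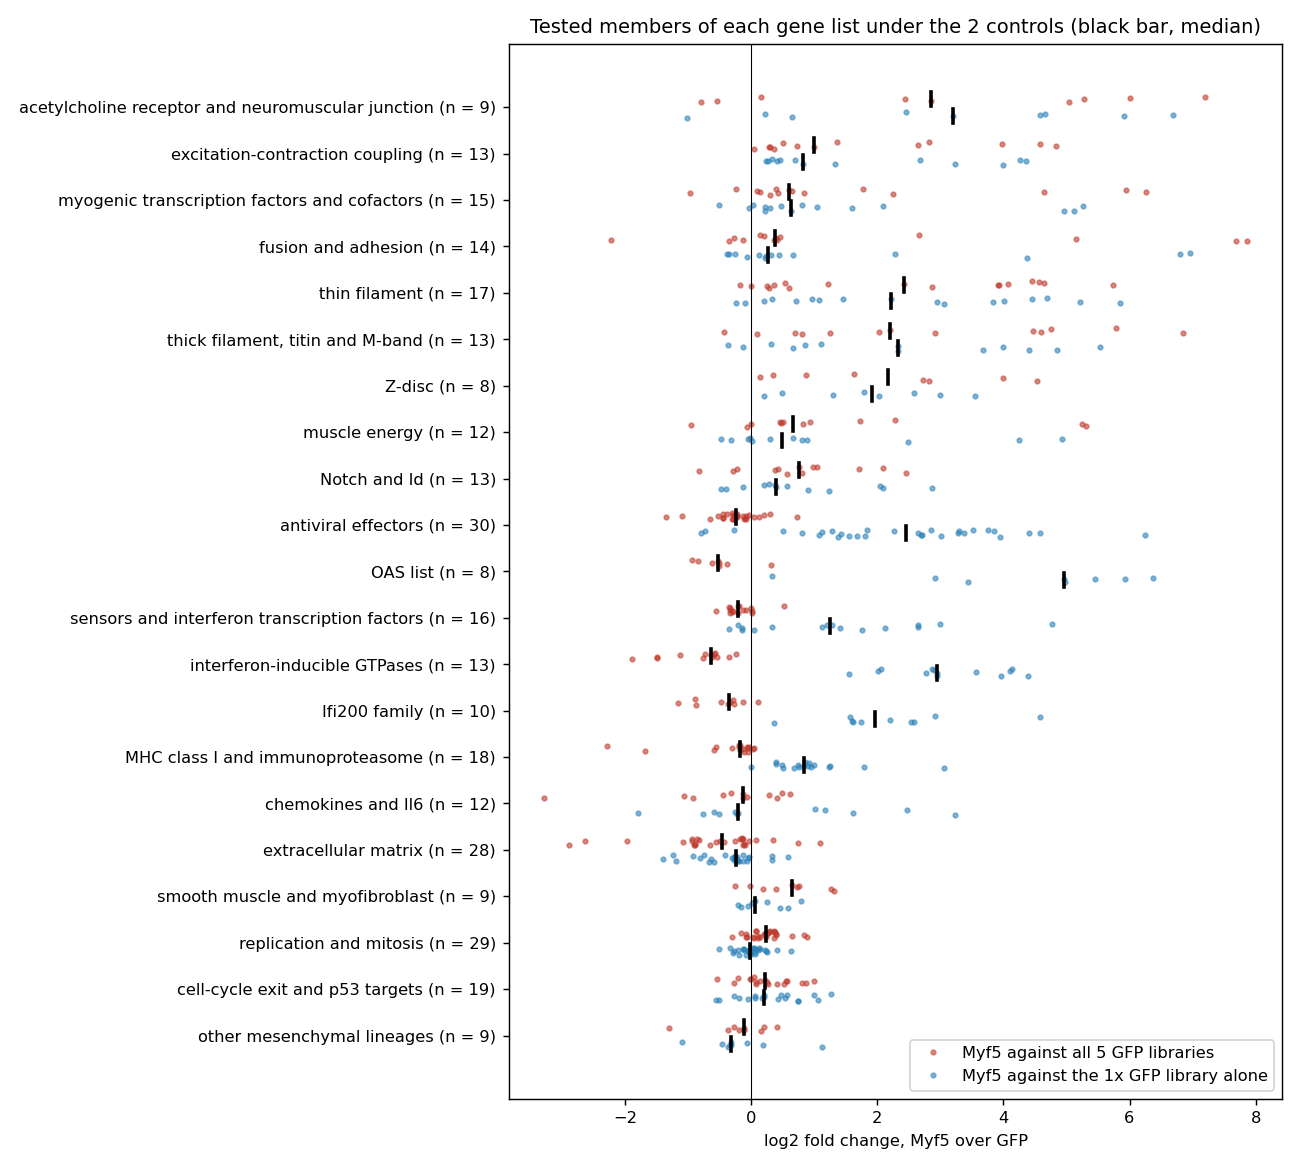
Log2 fold change of Myf5 over GFP (horizontal axis) for each tested gene of 21 lists (rows, with the number of tested genes), against all 5 GFP libraries (red) and against the 1x GFP library alone (blue); each point is 1 gene, at its lower bound where the control had 0 counts, and the black bar is the list median. Red and blue medians lie close together in the muscle lists, at 2.85 and 3.20 for the neuromuscular junction. They lie apart in the interferon lists other than chemokines, at -0.52 and 4.97 for the OAS list. The muscle lists include genes that did not meet the filter within GFP, a choice that favours genes higher with a muscle factor. Over the genes that met it, the medians were 1.30 and 1.55 for the neuromuscular junction and 0.48 and 0.02 for muscle energy.

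The promoters of 4 of these genes show the motifs of each program, and were chosen because each holds more than 1 copy. The sequences run from 250 bases before to 50 bases after the start of each gene in RefSeq (GRCm38.p6), 5′ to 3′ on the gene's strand. Capitals mark the E-box CAGCTG in Chrng (chr1:87205561-87205860, plus strand) and Tnnt2 (chr1:135836084-135836383, plus strand). In Ifit1 (chr19:34640639-34640938, plus strand) and Isg15 (chr4:156200769-156201068, minus strand) they mark the core of the interferon-stimulated response element, which is GAAA followed by any 2 bases and GAAA, or its reverse complement TTTC, any 2 bases and TTTC. The copies overlap in Isg15.
Chrng: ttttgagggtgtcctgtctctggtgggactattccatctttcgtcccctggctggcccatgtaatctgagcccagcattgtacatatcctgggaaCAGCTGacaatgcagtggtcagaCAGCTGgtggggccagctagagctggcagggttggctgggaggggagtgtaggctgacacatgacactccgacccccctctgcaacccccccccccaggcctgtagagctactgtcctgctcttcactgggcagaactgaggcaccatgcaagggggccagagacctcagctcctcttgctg
Tnnt2: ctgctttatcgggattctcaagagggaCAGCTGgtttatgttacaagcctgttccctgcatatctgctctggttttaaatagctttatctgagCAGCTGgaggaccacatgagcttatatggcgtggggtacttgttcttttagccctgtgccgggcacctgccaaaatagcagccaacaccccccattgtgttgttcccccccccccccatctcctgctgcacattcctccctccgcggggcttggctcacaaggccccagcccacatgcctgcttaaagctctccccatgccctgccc
Ifit1: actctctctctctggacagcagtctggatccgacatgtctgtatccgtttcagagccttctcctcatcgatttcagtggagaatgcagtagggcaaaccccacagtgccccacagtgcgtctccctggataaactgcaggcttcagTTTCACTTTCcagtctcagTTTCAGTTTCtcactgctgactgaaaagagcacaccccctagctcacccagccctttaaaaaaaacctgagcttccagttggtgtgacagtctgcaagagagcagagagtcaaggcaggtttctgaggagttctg
Isg15: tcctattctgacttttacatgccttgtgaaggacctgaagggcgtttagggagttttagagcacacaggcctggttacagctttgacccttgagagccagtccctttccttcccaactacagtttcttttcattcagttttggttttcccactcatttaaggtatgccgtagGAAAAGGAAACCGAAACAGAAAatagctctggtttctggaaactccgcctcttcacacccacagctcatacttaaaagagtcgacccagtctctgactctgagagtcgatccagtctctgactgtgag
Over the lists, CAGCTG, which reads the same on both strands, was found in 28 of 81 promoters of tested muscle genes (34.6%), 14 of 80 of tested interferon genes (17.5%) and 4353 of 27025 in the whole table (16.1%). Of the muscle genes that rose against 5 GFP, 35 had an entry and 13 of these held it (37.1%). The element on either strand was found in 0 of 81 muscle promoters, 39 of 80 interferon promoters (48.8%) and 943 of all (3.49%). The looser E-box CANNTG, which contains CAGCTG, gave 74.1%, 62.5% and 72.1%. A match describes the letters of the window and shows no binding.

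Matrix genes of fibroblasts were lower with Myf5, with calls against 5 GFP and none against 1x GFP. Of 28 tested, 10 fell and 1 rose against 5 GFP, with a median of -0.46, while 0 fell and 0 rose against 1x GFP, with a median of -0.24. Over all genes, 2.29% fell and 3.81% rose against 5 GFP, and 0.152% and 1.03% against 1x GFP. At an unadjusted p under 0.05, 12 were lower and 0 higher against 1x GFP, and with DESeq2 7 and 0. All 13825 genes gave 1083 lower and 1327 higher by the first rule, and 204 and 554 by DESeq2. In 21 of the 28, both Myf5 libraries lay below all 5 GFP libraries, against 16.6% of all genes. Both lay below 1x GFP in 24 of the 28, against 5288 of all 13825 genes. The MOI series differed from 1x GFP by a median of -0.003 over the 28, with 6 called higher and 1 lower. Eln, elastin, had 0.542 and 0.394 CPM with Myf5, against 1.23 CPM with 1x GFP and 4.41, 4.87, 3.40 and 4.39 CPM at an MOI of 15, 30, 60 and 120. Kera, keratocan, had 4.25 and 1.81 CPM, against 7.07 CPM with 1x GFP and 20.0 to 25.7 CPM in the MOI series. In both, 1x GFP stood between the Myf5 libraries and the MOI series. Eln had -2.89 ± 0.53 against 5 GFP (adjusted p = 0.0193) and -1.40 ± 0.29 against 1x GFP (adjusted p = 0.0668), and Kera had -2.63 ± 0.53 and -1.24 ± 0.38 (adjusted p = 0.0261 and 0.166). Lum, lumican, a keratan sulfate proteoglycan, fell against 5 GFP by 1.96 on the log2 scale, and its value against 1x GFP was -1.19 ± 0.34 (adjusted p = 0.14). The MOI series exceeded 1x GFP in Eln and Kera by 1.74 and 1.62 (adjusted p = 0.00454 and 0.0197).

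The collagen VI chains fell against 5 GFP by 0.90 for Col6a1, 1.08 for Col6a2 and 0.65 for Col6a3 on the log2 scale. Their values against 1x GFP were -0.67 ± 0.18, -0.82 ± 0.21 and -0.75 ± 0.20, with an adjusted p of 0.117 to 0.121. Col6a1 had 1245 and 963 CPM with Myf5, against 1739 CPM with 1x GFP and 2178 to 2239 CPM in the MOI series. Loxl2, a collagen cross-linking enzyme, had 104 and 82.4 CPM, against 175 CPM with 1x GFP and 172 to 179 CPM in the MOI series (-0.89 ± 0.16, adjusted p = 0.0195, and -0.92 ± 0.22, adjusted p = 0.1). Thbs1, the matricellular thrombospondin, was the one list member that rose against 5 GFP, with 849 and 1025 CPM against 617 CPM with 1x GFP and 305 to 526 CPM in the MOI series (1.09 ± 0.23, adjusted p = 0.0313). It was not called against 1x GFP (0.59 ± 0.26, adjusted p = 0.293). No named gene of the matrix list kept its call without the 2x Myf5 library, and Kera, Col3a1, Dcn and Thbs1 lost theirs without either Myf5 library or any 1 library of the MOI series (adjusted p up to 0.439).

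**Figure D4:**
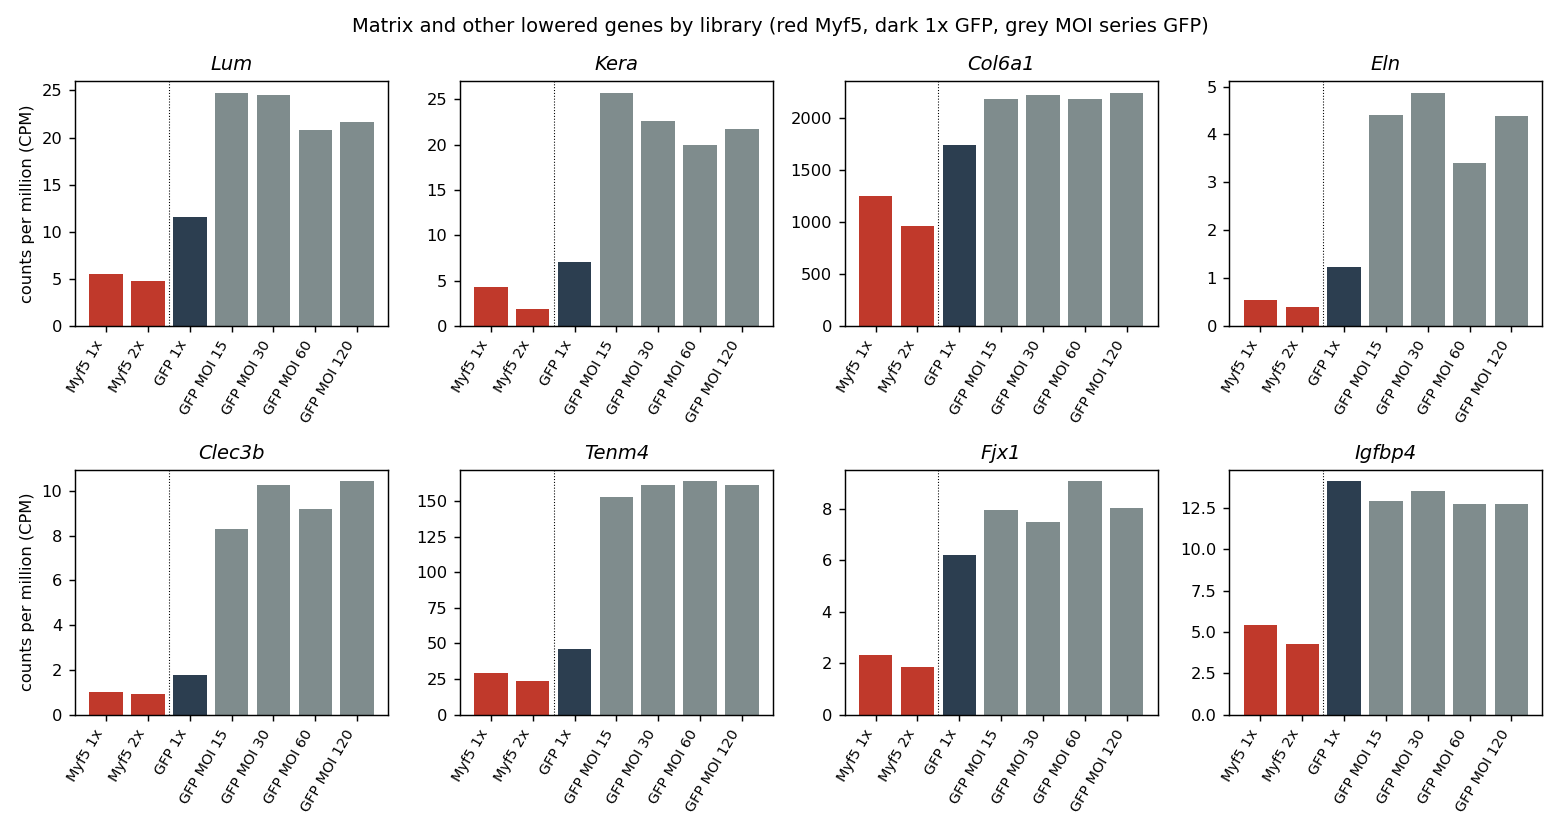
Level in CPM (vertical axis, each panel on its own scale) of 8 genes that fell with Myf5 against 5 GFP, in the 2 Myf5 libraries (red), the 1x GFP library (dark) and the 4 GFP libraries of the MOI series (grey); each bar is 1 library. Both Myf5 bars are the lowest in each panel. In Clec3b, Tenm4, Kera, Eln and Lum the 1x GFP bar lies nearer to Myf5 than to the MOI bars, while in Igfbp4 it is the highest, at 14.1 CPM.

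Among the largest falls against 5 GFP outside the lists, most were smaller against 1x GFP. Tenm4, a teneurin adhesion protein, had 28.9 and 23.3 CPM with Myf5, against 45.7 CPM with 1x GFP and 153, 161, 164 and 161 CPM at an MOI of 15, 30, 60 and 120. Its log2 fold change was -2.35 ± 0.48 against 5 GFP (adjusted p = 0.0275) and -0.82 ± 0.23 against 1x GFP (adjusted p = 0.132). Clec3b, tetranectin, fell against 5 GFP (-3.00 ± 0.63) and had -0.90 ± 0.20 against 1x GFP (adjusted p = 0.0756). Stra6, the receptor for retinol-binding protein, had 3.87 and 1.77 CPM with Myf5, against 11.8 CPM with 1x GFP and 17.4 to 31.1 CPM in the MOI series (-2.95 ± 0.50 and -2.08 ± 0.49, the first called). Prelp, Tnxb and Spon2, matrix proteins outside the list, Mmp12, a metalloelastase, Acpp, an acid phosphatase, and Cdh26, a cadherin, fell against 5 GFP by 1.76 to 2.40 on the log2 scale and were not called against 1x GFP. Of these falls, Tenm4, Clec3b, Mmp12 and Cdh26 were called in 1 of the 7 fits that each left out 1 library, the one without 1x GFP (adjusted p otherwise up to 0.374).

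There were 6 genes that fell under both controls among those the naming rule reached. Fjx1, a homologue of the fly planar polarity gene four-jointed, had 2.31 and 1.84 CPM with Myf5, against 6.22 CPM with 1x GFP and 7.50 to 9.07 CPM in the MOI series (-1.86 ± 0.18, adjusted p = 0.00144, and -1.60 ± 0.19, adjusted p = 0.0109). Igfbp4, which binds insulin-like growth factors, had 5.42 and 4.25 CPM, against 14.1 CPM with 1x GFP and 12.7 to 13.5 CPM (-1.42 ± 0.20 and -1.56 ± 0.25). Apcdd1, a Wnt inhibitor, had 16.6 and 14.4 CPM, against 33.4 CPM with 1x GFP and 28.0 to 34.8 CPM (-1.03 ± 0.15 and -1.12 ± 0.19). In these 3 the 1x GFP library stood with or near the MOI series. Bnc1, a zinc finger protein, Itm2a, a membrane protein, and Adgre5, an adhesion receptor, had -3.07 ± 0.53, -1.73 ± 0.31 and -0.88 ± 0.11 against 5 GFP and -1.51 ± 0.24, -0.76 ± 0.13 and -0.68 ± 0.11 against 1x GFP. Each of the 6 lost its call against 1x GFP when 1 Myf5 library was left out, the 2x library in each case and for Itm2a also the 1x library (highest adjusted p from 0.0564 for Fjx1 to 0.192 for Apcdd1). Scd4, a fatty acid desaturase, fell against 1x GFP, also without either Myf5 library, with 1.45 and 1.08 CPM with Myf5, against 8.21 CPM with 1x GFP and 1.62 to 2.68 CPM in the MOI series (-2.71 ± 0.26, adjusted p = 0.00348). Its value against 5 GFP was -1.47 ± 0.64 (adjusted p = 0.17). Olr1, Fgf2 and Slco4a1 fell against 1x GFP by 1.03, 0.94 and 0.91 on the log2 scale and were not called against 5 GFP, where Slco4a1 had the opposite sign (0.39 ± 0.59). E230016M11Rik, a non-coding transcript, had 17.4 and 15.2 CPM with Myf5, against 24.6 CPM with 1x GFP and 17.0 to 19.1 CPM in the MOI series, and fell against 1x GFP (-0.60 ± 0.11), with -0.22 ± 0.16 against 5 GFP (adjusted p = 0.377). The calls of Olr1, Fgf2, Slco4a1 and E230016M11Rik against 1x GFP were lost without the 2x Myf5 library. That of Slco4a1 was lost also without the 1x Myf5 library.

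Of the large rises outside the muscle lists, those of Sox8, Lama5 and Gdpd2 were called under both controls. Sox8, an HMG-box factor, had 6.41 and 16.4 CPM with Myf5, against 0 to 0.172 CPM in GFP libraries, and rose by 6.63 ± 0.54 and 6.02 ± 0.86 (adjusted p = 0.000572 and 0.0207). Lama5, the laminin alpha 5 chain of basement membranes, had 7.82 and 17.7 CPM, against 0.268 to 0.784 CPM, and rose by 4.63 ± 0.40 and 4.42 ± 0.68. Gdpd2, a glycerophosphodiester phosphodiesterase, had 4.28 and 7.39 CPM, against 0.159 CPM with 1x GFP and 0.355 to 0.581 CPM in the MOI series, and rose under both controls (adjusted p = 0.00122 against 5 GFP, and 5.16 ± 0.48, adjusted p = 0.00348, against 1x GFP). Ppfia4, a liprin, rose against 5 GFP (4.87 ± 0.54) and missed the threshold against 1x GFP (4.28 ± 0.83, adjusted p = 0.0576). H19, an imprinted non-coding RNA of embryonic muscle and other tissues, had 35.6 and 56.9 CPM with Myf5, against 1.36 CPM with 1x GFP and 34.5, 32.6, 27.1 and 34.6 CPM at an MOI of 15, 30, 60 and 120. The 1x Myf5 library was level with the MOI series, and the 1x GFP library stood far below both. H19 rose against 1x GFP (5.07 ± 0.42, adjusted p = 0.00336) and not against 5 GFP (0.90 ± 0.79, adjusted p = 0.469), and the MOI series exceeded 1x GFP by 4.50 (adjusted p = 0.000652).

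Of 29 replication and mitosis genes, 2 rose and 0 fell against 5 GFP and 0 rose and 0 fell against 1x GFP, with medians of 0.24 and -0.01. At an unadjusted p under 0.05 the counts were 7 and 0 against 5 GFP and 3 and 2 against 1x GFP, and with DESeq2 3 and 0, and 0 and 1. Over all 13825 genes edgeR called 3.81% higher and 2.29% lower against 5 GFP, and 1.03% and 0.152% against 1x GFP. The unadjusted rule gave 1906 and 2039 of them, and 1327 and 1083. DESeq2 gave 1059 and 1084, and 554 and 204. These shares stand beside every list of this paragraph and the next. Ccne1, cyclin E1, and Mcm7, a replicative helicase subunit, were the 2 that rose (0.89 ± 0.17 and 0.40 ± 0.07). Of 19 genes of cell-cycle exit and p53 targets, 4 rose and 1 fell against 5 GFP and 2 rose and 1 fell against 1x GFP. Rb1, the retinoblastoma gene, had 75.2 and 97.3 CPM with Myf5, against 41.2 CPM with 1x GFP and 48.9 to 51.1 CPM in the MOI series (0.87 ± 0.20, adjusted p = 0.0358, and 1.05 ± 0.31, adjusted p = 0.144). Plk2, a kinase, Phlda3 and Bax, p53 targets, rose against 5 GFP by 0.81 ± 0.11, 0.55 ± 0.08 and 0.41 ± 0.09, and Cdkn2c, a cyclin-dependent kinase inhibitor, fell by 0.54 on the log2 scale. None of these 4 was called against 1x GFP. Trp53inp1 rose and Gadd45a fell against 1x GFP (0.75 ± 0.12 and -0.55 ± 0.09), and neither was called against 5 GFP (0.27 ± 0.16 and -0.26 ± 0.12). Both calls against 1x GFP were lost without the 2x Myf5 library. Of 9 tested smooth muscle and myofibroblast genes, 1 rose against 5 GFP, Synpo2 (1.27 ± 0.29, adjusted p = 0.036), and 0 rose against 1x GFP by edgeR (1 at an unadjusted p under 0.05, 0 with DESeq2). The medians were 0.65 and 0.06, and Actg2, smooth muscle actin, had 0.76 ± 0.27 and 0.59 ± 0.38. When 1 of the 7 libraries at a time was left out, the calls of Rb1, Bax and Synpo2 against 5 GFP, like those of Hes1, Synpo2l and Cxcl12, were kept only without 1x GFP (adjusted p otherwise up to 0.421). Of 9 tested genes of other mesenchymal lineages edgeR called 0 under either control. At an unadjusted p under 0.05, 2 were lower against 5 GFP, and 1 was higher and 1 lower against 1x GFP, while DESeq2 called 1 lower and 0. Runx2, the bone regulator, had -0.37 ± 0.11 and -0.33 ± 0.15, and Cebpa, the fat regulator, had -1.30 ± 0.48 and -0.32 ± 0.49.

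In bulk RNA, fewer cells of a type and less RNA per cell cannot be told apart. The 10 fibroblast markers were all tested, and 2 fell against 5 GFP, Col3a1 and Dcn. Against 1x GFP edgeR called 0, while 4 were lower at an unadjusted p under 0.05 and 1 with DESeq2, and the medians were -0.18 against 5 GFP and -0.38 against 1x GFP. Their summed level was 17673 and 14725 CPM with Myf5, against 20199 to 21638 CPM with GFP. Col3a1 had 1947 and 1597 CPM with Myf5, against 2643 CPM with 1x GFP and 3521 to 3728 CPM in the MOI series. The 10 macrophage markers summed to 30.1 and 29.7 CPM with Myf5, against 22.1 to 29.9 CPM with GFP, and none of the 5 tested was called by edgeR under either control (1 higher at an unadjusted p under 0.05 under each, and 0 and 1 higher with DESeq2). Lyz2, the macrophage lysozyme, had 3.63 and 3.12 CPM, against 2.76 CPM with 1x GFP and 0.456 to 0.897 CPM in the MOI series, and Csf1r had 10.6 and 10.8 CPM, against 8.92 to 10.8 CPM. Of 8 endothelial markers only Vwf passed the filter, and none of 8 epithelial markers did. Vwf had 9.30 and 9.45 CPM with Myf5, against 4.55 CPM with 1x GFP and 1.25 to 1.65 CPM in the MOI series, and rose against 5 GFP alone (2.10 ± 0.45, adjusted p = 0.031). The 8 neuron and glia markers had 5 tested, with medians of 0.18 against 5 GFP and 0.19 against 1x GFP. Among them Map2 and Tubb3, which are neuronal, rose against 5 GFP (1.27 ± 0.30 and 1.36 ± 0.29) and not against 1x GFP (0.46 ± 0.12 and 0.72 ± 0.28). The calls of Vwf, Map2 and Tubb3 against 5 GFP were lost without either Myf5 library or any 1 library of the MOI series (adjusted p up to 0.391). The 8 endothelial markers summed to 10.1 and 10.5 CPM with Myf5 against 2.19 to 5.63 CPM with GFP, and the 8 neuron and glia markers to 64.3 and 63.4 CPM against 36.7 to 48.9 CPM. The part of other cell types in the results was not tested.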

How the data were processed

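Expression was measured by poly(A) RNA-seq in 12 libraries of the series. The 7 described here come from 1 table of 10 libraries; the other table, normalised apart, was not used. Values are expected counts per gene, deposited by the authors; they are not whole (tolerance 1e-06) for 1982 to 2767 genes a library and were rounded. The submitters' processing notes name CASAVA 1.8.2, TopHat2 2.0.8 and mm9. The counting tool, its annotation and its use of strand are not given in the sources used here, so overlapping genes are uncertain.

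Genes with at least 1 CPM in at least 2 of the 10 libraries were tested with edgeR 4.0.16 (TMM, quasi-likelihood, R 4.3.3, limma 3.58.1) and Benjamini-Hochberg adjustment. One fit had the groups GFP, Myf5, MyoD and untransduced; another separated 1x GFP from the MOI series, so that the single 1x GFP library was assumed to vary like the others. DESeq2 1.42.0 was an alternative, and the fits were tested on simulated data. Figures used Python 3.11.15 and matplotlib 3.10.9.

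Genes named were Myf5, Myod1 and Myog, the 15 largest rises and falls against 5 GFP and the 10 largest against 1x GFP among called genes with a mean of at least 5 CPM and libraries that did not overlap, and list members, of each list at least the 2 with the smallest p. 1 unnamed transcript was left out, and some list members are not reported here. The comparison and the lists were chosen with earlier results of these data known, while the libraries in it follow from their labels. Intervals and floors cover counting error only.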

Additional observations from a re-analysis of the deposited data

Results flagged for a closer look

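Dixon's ratio at the 95% level was applied to the 5 GFP libraries for 119 named genes. It picked out 27, where chance alone picks about 1 in 20 groups of independent values, a rate that does not hold for genes named partly for their differences among these same 5 libraries. The library that stood apart was 1x GFP in 25 of the 27. The 4 other libraries form 1 MOI series of lower depth. The ratio therefore cannot tell whether 1x GFP or that series stands apart from cells at large. The label of the 1x GFP library gives a dose in place of an MOI, and its depth, dose and infection cannot be told apart.

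Among muscle genes, 1x GFP was the highest GFP library for Myog at 0.503 CPM, Cdh15 at 0.245 CPM, Myh3 at 0.209 CPM, Rbm24 at 0.0491 CPM and Myom3 at 0.0245 CPM, each with 0 in the MOI series. It was also the highest for Actc1 at 0.331 CPM, Actn3 at 5.07 CPM and Eno3 at 55.6 CPM. For Rbm24 and Myom3 the level lies below what 3 counts would give in a MOI library.

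In matrix genes the 1x GFP library was the lowest, with about 1810 CPM for Dcn, 2640 CPM for Col3a1, 1740 CPM for Col6a1 and 1080 CPM for Col6a2. The same holds for Clec3b at 1.77 CPM, Tenm4 at 45.7 CPM, Itm2a at 7.24 CPM, Acpp at 15.3 CPM, H19 at 1.36 CPM and Rb1 at 41.2 CPM.

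It was the highest for Scd4 at 8.21 CPM, Slco4a1 at 8.56 CPM, Olr1 at 10.5 CPM, Vwf at 4.55 CPM, Map2 at 16.4 CPM, Lyz2 at 2.76 CPM and E230016M11Rik at 24.6 CPM. The other 2 cases were Tnnt3, at 1.05 CPM at an MOI of 120, and Mybph, whose 0.0894 CPM at an MOI of 60 came from 2 counts.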

How the results depend on the processing

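Against 5 GFP, 527 genes rose and 316 fell. DESeq2 gave 1059 and 1084, the 4 MOI libraries alone 2594 and 2473, the 1x GFP library alone 142 and 21, the interferon level as covariate (chosen after seeing the data) 1403 and 1157, and a fit of the 7 libraries 479 lower. Leaving out 1 library gave 55 to 2512 higher and 2 to 2551 lower; the fewest came without 2x Myf5 and the most without 1x GFP. Muscle genes numbered 47 higher and 2 lower. They were 15 higher and 0 lower with 1x GFP alone, 5 lower with the MOI libraries alone or the covariate, 1 lower with no filter, and 15 to 59 higher and 0 to 5 lower without 1 library, with 31 higher without an MOI of 30. Interferon genes numbered 0 higher and 1 lower; 1 was higher with RLE scaling, no filter, DESeq2 or thinning, and 2 with the MOI libraries alone or 1x GFP alone, while 0 were lower with no filter or 1x GFP alone, 4 with DESeq2 and 9 with the MOI libraries alone. Without 1 library 0 to 2 were higher and 0 to 10 lower.

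Against 1x GFP, 142 genes rose and 21 fell. No filter gave 220 and 43, DESeq2 554 and 204, the 7 libraries 551 and 355, thinning 9 lower, the covariate 16 and 0, and leaving out a Myf5 library 50 to 307 and 1 to 93. Muscle genes higher, 15, became 23 with no filter, 36 with DESeq2, 40 with 7 libraries, 4 with the covariate and 10 to 27 without a Myf5 library. Interferon genes, 2 higher and 0 lower, became 10 higher with no filter, 45 with DESeq2, 12 higher and 5 lower with 7 libraries, and 0 to 42 higher and 0 to 1 lower without a Myf5 library. The cause was not tested.

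With 1x GFP alone, log2 fold changes turned sign against the value from 5 GFP for Agrn (0.64), Mef2c (1.04), Isg15 (4.40), Oas2 (6.38), Irf7 (2.99), Irf9 (1.13), Gbp3 (2.90), Tgtp1 (3.57), Ifi203 (2.92), H2-Q7 (0.91), H2-Q6 (1.79), B2m (0.84), Isg20 (0.51), Trim30a (2.70), Oas1b (2.92), Gm12185 (2.06), Ifi209 (1.62) and Slco4a1 (-0.91), and with the MOI libraries alone for Ifit1 (-0.17). Against 1x GFP the covariate turned Myod1 (0.10), Agrn (-0.42) and Thbs1 (-0.0462), and thinning turned Cebpa (0.46). Leaving out 1 library gave, against 5 GFP, -0.56 to 0.0063 for Mef2c, -1.13 to 0.78 for Ifit1, -2.42 to 0.58 for Isg15, -3.25 to 0.0105 for Oas2, -1.40 to 0.44 for Irf7 and -0.54 to 0.17 for B2m, and against 1x GFP -0.84 to 0.0571 for Cebpa.

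No paired analysis was possible because the labels give no replicate numbers. The 1x GFP comparison rests on 1 control library, and the smaller depth of the MOI libraries limits low genes.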
